A study of Rattus norvegicus with 6 samples.

Results

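The 8 genes described here belong to the presynaptic terminal and to the making and packing of GABA and glutamate. They were Snap25 (ENSRNOG00000006037), Syt1 (ENSRNOG00000006426), Syn1 (ENSRNOG00000010365), Vamp2 (ENSRNOG00000006989), Gad1 (ENSRNOG00000000007), Gad2 (ENSRNOG00000018200), Slc32a1 (ENSRNOG00000015393) and Slc17a6 (ENSRNOG00000016147), chosen by their Ensembl identifiers from a table of 22976 genes, and all 8 were present. The deposited table holds identifiers only, and 0 of them occur in the reference gene table used here. The symbols are those of the list that defined the 8 genes, and the pairing was not checked against an annotation. The tissue was the rostral ventromedial medulla (RVM) of rats, profiled by sequencing of poly-A RNA. There were 3 libraries from rats whose temporomandibular (jaw) joints on both sides had each received 50 µL of complete Freund's adjuvant (CFA), an emulsion that inflames tissue, and 3 from rats given 50 µL of saline in the same way, all at day 3. The study is concerned with the loss of synapses to microglia in pain of the face and jaw. Strain, age and sex are not stated in the labels, nor is the number of rats behind each library. The p-values therefore cover only how far these libraries differ, which may be technical spread.

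At a release site, a synaptic vesicle fuses when the vesicle protein VAMP2 zips together with SNAP25 and a syntaxin on the cell membrane, and synaptotagmin, the calcium sensor, triggers that fusion. Whether the vesicle carries GABA or glutamate depends on the enzymes that make GABA and on the transporter in the vesicle wall. The RVM sends axons to the spinal and trigeminal dorsal horn that can raise or lower pain signals. Many of these neurons release GABA or glycine, others release glutamate, and some release serotonin.

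Most of these 8 genes, of presynaptic release and of both transmitters, fell after CFA, though Slc17a6 alone stood for the loading of glutamate. Of the 8 genes, 7 passed an adjusted p of 0.05 as lower in CFA, and Vamp2 did not pass (limma on log2(FPKM + 1), Benjamini-Hochberg over all 13566 genes tested). Across all genes tested, 7.48% passed as lower and 18.8% in either direction. Among the 4095 genes whose mean FPKM lay within 1.5-fold of that of at least 1 of the 8 genes, 15.1% passed as lower. The 8 genes were chosen with earlier results of these data known, so these shares are a description and not independent support. Gad2 fell the most, by 27.0% of its saline mean, and Gad1 by 16.9%. The other 5 genes that fell lost 8.22% to 12.4%. The median log2 change of the 8 genes was -0.17, beside 0.012 over all genes tested. A median over the genes of like level, which passed as lower more often, was not worked out. All 8 passed the filter of a mean of at least 1 FPKM. RNA from a whole tissue piece does not tell fewer neurons of a kind apart from less RNA in each neuron.

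Levels are given in FPKM (fragments scaled by gene length and by library total), so they can be compared between genes. The order of the levels was the same in both groups. It ran from Snap25 through Vamp2, Syn1, Slc17a6, Gad1, Slc32a1 and Syt1 down to Gad2, and the ranges of neighbours in this order did not overlap within either group. Snap25 stood far above the rest, at 10.2 times the mean of Vamp2 in saline and 9.38 times in CFA. Only 22 genes of the table had a higher mean than Snap25, and 12.3% of the genes were higher than Gad2. The closest neighbours were Syn1 and Slc17a6, with a ratio of means of 1.16 in saline and 1.20 in CFA. These levels rest on the gene models behind the FPKM, whose lengths, worked out from the steps between values, ran from 1896 bp for Syt1 to 3969 bp for Slc17a6.

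**Figure D1:**
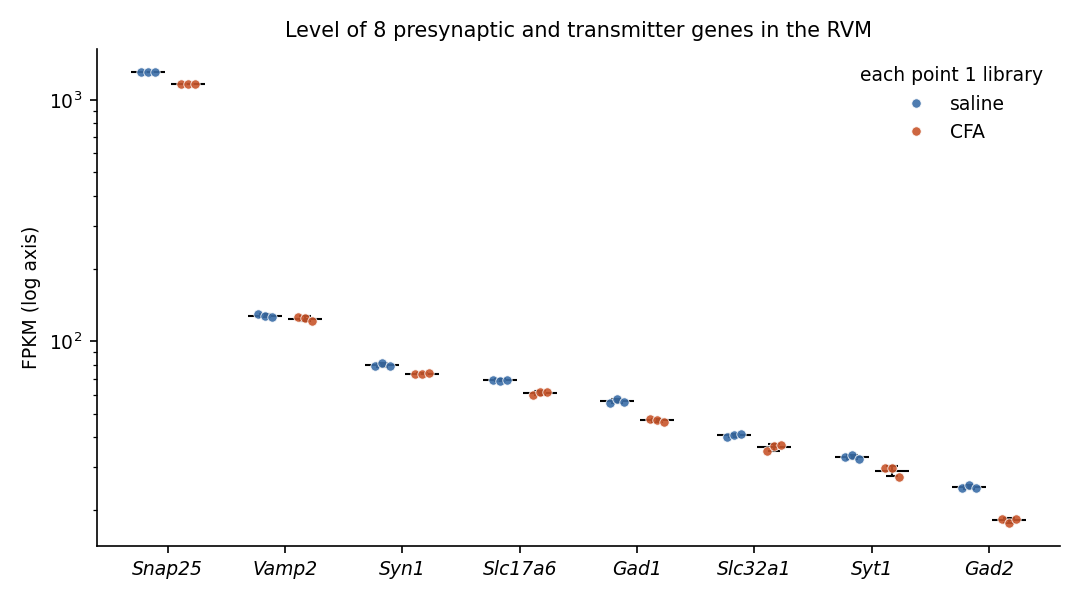
FPKM (log axis) of each of the 8 genes in the 3 saline (blue) and 3 CFA (orange) libraries, ordered by saline mean. Each point is 1 library, the horizontal line is the group mean and the bar its SD. Snap25 lies near 1301 FPKM in saline, and Gad2 is lowest, at 24.9 FPKM in saline and 18.2 FPKM in CFA.

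Library totals worked out from the FPKM steps were 27534174 to 44977905 fragments. A single gene among the 8 had between 956 (Gad2, CFA replicate 2) and 130345 fragments (Snap25, saline replicate 1) in a library. Within a group the coefficient of variation of the 8 genes was 0.166% to 5.03%. The variance between the libraries of a group, in fragments, was 0.126 to 6.52 times that of counting alone. The highest coefficient of variation was that of Syt1 and the highest variance that of Vamp2, each in the CFA libraries.

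Values of a group are given in the order of replicates 1, 2 and 3. Among the genes of the fusion machinery, Snap25 encodes the membrane-side fusion protein. It measured 1298, 1301 and 1305 FPKM in the saline libraries, against 1161, 1165 and 1165 FPKM in the CFA libraries. The CFA values lay together, well below the saline values, with a gap of 133 FPKM between the lowest saline and the highest CFA library. The mean went from 1301 ± 3.86 to 1164 ± 1.94 FPKM (SD, n = 3 each), 10.6% lower. The log2 change of FPKM + 1 was -0.16 (SE 0.0069; limma with Benjamini-Hochberg adjustment, adjusted p = 2.89e-06), the lowest p of the 8 genes. With quantile scaling of the libraries it was -0.10 (limma adjusted p = 1.07e-07). Without a mean-variance trend in limma, the SE of Snap25 was 0.027 and its adjusted p 0.0138, while the adjusted p of Gad2 was 0.000587. In fragments, the variance between the CFA libraries of Snap25 was 0.254 times counting noise and between the saline libraries 1.05 times.

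Vamp2, which encodes the vesicle-side partner of that complex, did not pass the test. It measured 129, 128 and 126 FPKM in the saline libraries, against 126, 125 and 121 FPKM in the CFA libraries. The groups overlapped, since CFA replicate 1 (126.2 FPKM) lay above saline replicate 3 (125.8 FPKM), and CFA replicate 3 was the lowest library. The means were 127.6 ± 1.68 and 124.1 ± 2.77 FPKM (SD, n = 3 each). The log2 change was -0.039 with a 95% interval of -0.087 to 0.0082 (adjusted p = 0.230, limma). With FPKM as given, that interval leaves out the change of Snap25. The log2 change of Vamp2 was -0.021 without CFA replicate 3, -0.026 with quantile scaling and -0.014 with cyclic loess scaling.

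Syt1 encodes the calcium sensor of fast release. Its saline libraries held 33.3, 33.7 and 32.5 FPKM and its CFA libraries 29.9, 29.9 and 27.4 FPKM. The groups did not overlap, and CFA replicate 3 lay below the other two CFA libraries. The fall was 12.4%, from 33.2 ± 0.592 to 29.1 ± 1.46 FPKM (SD, n = 3 each), and the log2 change was -0.19 (SE 0.038, limma adjusted p = 0.0132). This was the highest adjusted p of the 7 genes that passed.

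Syn1 encodes synapsin, which coats vesicles and ties them into the reserve pool of the terminal. It was at 79.0, 81.5 and 79.1 FPKM in the saline libraries, against 73.3, 73.0 and 73.6 FPKM in the CFA libraries. All CFA values were below all saline values, and they spread over less than 1 FPKM. The mean fell by 8.22%, with a log2 change of -0.12 (SE 0.019, limma adjusted p = 0.00386), the smallest of the changes that passed. In fragments, the variance between the CFA libraries was 0.126 times counting noise.

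Gad2 encodes the smaller of the 2 forms of glutamate decarboxylase, which turn glutamate into GABA, and it is the form held at terminals and on vesicles. The saline libraries held 24.6, 25.4 and 24.6 FPKM of it, against 18.4, 17.7 and 18.4 FPKM in the CFA libraries. The groups were set widely apart, the highest CFA library lying 6.14 FPKM (24.7% of the saline mean) below the lowest saline library. The mean went from 24.9 ± 0.450 to 18.2 ± 0.436 FPKM (SD, n = 3 each), on 5744 fragments over the saline and 3511 over the CFA libraries. The log2 change was -0.43 (SE 0.031, 95% interval -0.50 to -0.36, limma adjusted p = 5.26e-05). Of the 13566 genes tested, 104 had a lower log2 change, or 0.767%.

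Gad1 encodes the larger form, which is spread through the cytoplasm of GABA neurons. It stood at 55.7, 57.7 and 56.2 FPKM in the saline libraries, against 47.5, 47.1 and 46.2 FPKM in the CFA libraries. The groups did not overlap, with 8.14 FPKM between them. The mean fell by 16.9%, from 56.5 ± 1.03 to 47.0 ± 0.670 FPKM (SD, n = 3 each), and the log2 change was -0.26 (SE 0.023, limma adjusted p = 0.000174). A lower log2 change was found in 2.93% of all genes tested.

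Slc32a1 encodes the transporter that loads GABA and glycine into vesicles. The saline libraries gave 40.0, 41.1 and 41.1 FPKM and the CFA libraries 35.0, 36.7 and 37.3 FPKM. No CFA library reached the lowest saline library, and CFA replicate 1 was the lowest. The mean was 10.8% lower, at 36.3 ± 1.20 against 40.7 ± 0.623 FPKM (SD, n = 3 each), and the log2 change was -0.16 (SE 0.030, limma adjusted p = 0.00773).

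Slc17a6 encodes the transporter that loads glutamate into vesicles in most brainstem excitatory neurons. Its values were 69.2, 68.4 and 69.3 FPKM in the saline libraries, against 59.97, 61.7 and 61.4 FPKM in the CFA libraries. The CFA libraries were all lower than the saline libraries, by at least 6.64 FPKM. The mean fell by 11.5%, from 69.0 ± 0.501 to 61.0 ± 0.950 FPKM (SD, n = 3 each), and the log2 change was -0.17 (SE 0.020, limma adjusted p = 0.000741). The transporters of the inhibitory and the excitatory vesicle thus fell by 10.8% and 11.5%.

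**Figure D2:**
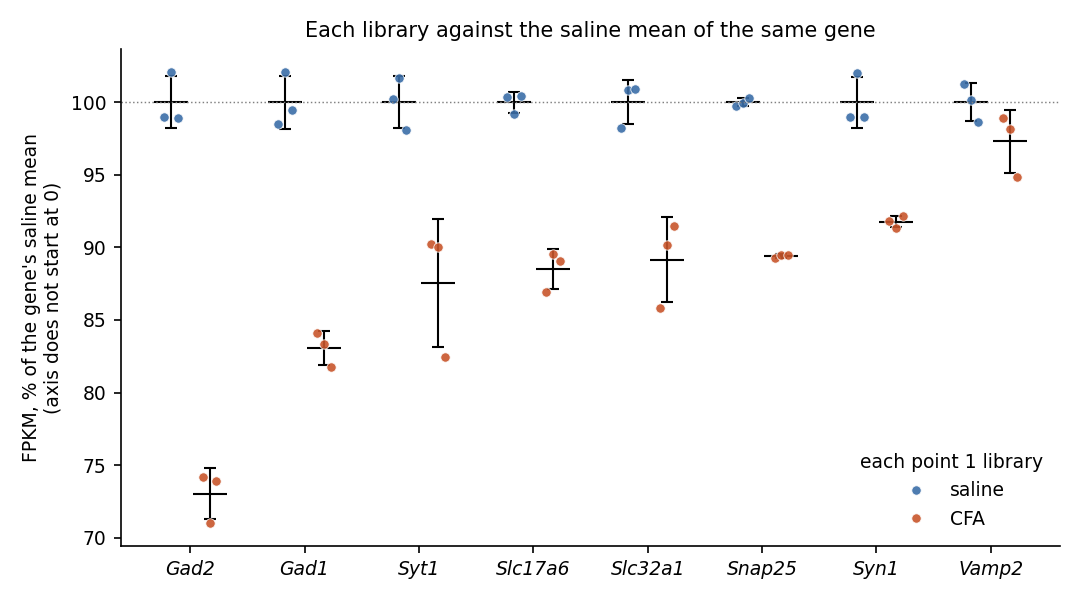
FPKM of each gene in each library as a percentage of that gene's saline mean, ordered from the largest fall to the smallest, with the group mean and SD. Gad2 in CFA lies at 71.0% to 74.2% and Gad1 at 81.8% to 84.1%, while the Vamp2 groups overlap. The axis does not start at 0.

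The groups did not overlap, with CFA lower, in 7 of the 8 genes. Across all genes tested this held for 16.5%, and among the genes of like level for 26.8%. Here too, the 8 genes were not chosen blind to these data. The summed FPKM of the 4 genes of GABA and glutamate was 191 ± 1.495 FPKM over the saline libraries, against 162 ± 1.35 FPKM over those of CFA (SD, n = 3 each), 15.0% lower. That of the 4 genes of the fusion machinery and vesicle was 1542 ± 2.50 and 1390 ± 2.93 FPKM, 9.86% lower, and most of it was Snap25. Without Snap25 the sum of the other 3 went from 241 ± 2.85 to 226 ± 4.01 FPKM, 5.88% lower. These sums describe the genes and were not tested.

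**Figure D3:**
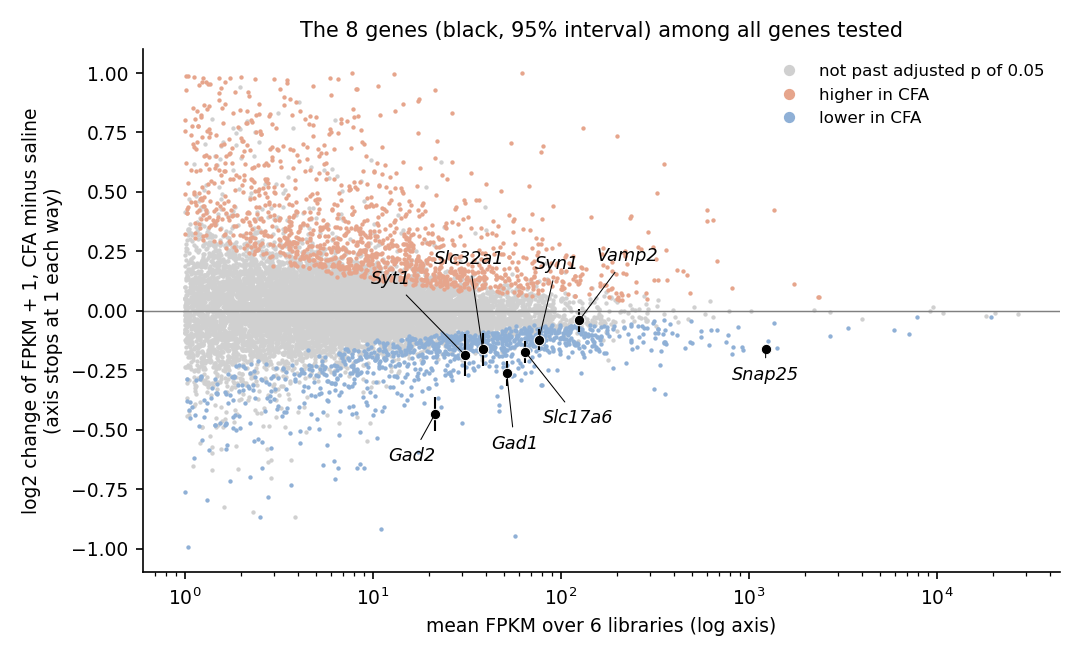
Log2 change of FPKM + 1 (CFA minus saline) against mean FPKM over the 6 libraries (log axis) for the genes tested, with genes past the adjusted threshold in orange (higher in CFA) and blue (lower). The 8 genes are in black with 95% intervals. Gad2 lies at -0.43 and Snap25, far to the right, at -0.16, and 192 genes beyond a change of 1 are outside the axis.

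Ratios of the genes within a library do not change when a library is rescaled by a single factor, though quantile and cyclic loess scaling can change them. A test of 3 libraries against 3 cannot give a two-sided exact permutation p under 0.1. It gives 0.1 whenever the groups do not overlap, so that p only restates the separation. The ratios were planned as description without a test, and the exact p was added to that plan. The ratio of Gad1 to Gad2 was 2.26, 2.27 and 2.29 in the saline libraries, against 2.58, 2.67 and 2.52 in the CFA libraries. The groups did not overlap, so Gad2 was lower relative to Gad1 in every CFA library (exact permutation p = 0.1, 0.147 after Benjamini-Hochberg adjustment over the 28 ratios of pairs). The log2 of that ratio was 0.19 higher in CFA.

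The ratios of both decarboxylases to the transporter that loads their product also lay lower in CFA. The ratio of Gad2 to Slc32a1 was 0.615, 0.618 and 0.598 in the saline libraries, against 0.527, 0.481 and 0.493 in the CFA libraries. The ratio of Gad1 to Slc32a1 was 1.392, 1.404 and 1.368 in the saline libraries, against 1.360, 1.284 and 1.241 in the CFA libraries. Its mean went from 1.39 ± 0.0187 to 1.29 ± 0.0602 (SD, n = 3 each), and CFA replicate 1 lay only just below saline replicate 3. Neither ratio overlapped between groups (exact permutation p = 0.1 for each, adjusted p = 0.147), and these pairs were picked after the values had been seen.

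The balance of inhibitory to excitatory vesicle transporters, read from Slc32a1 and Slc17a6 alone, was not separated between the groups. The ratio of Slc32a1 to Slc17a6 was 0.578, 0.601 and 0.593 in the saline libraries, against 0.583, 0.595 and 0.607 in the CFA libraries. The groups overlapped over most of the range of each (exact permutation p = 0.7), with a log2 difference of 0.010. Within the fusion complex, the ratio of Vamp2 to Snap25 was 0.0980 ± 0.00158 in saline, beside 0.107 ± 0.00251 in CFA (SD, n = 3 each), with no overlap (exact permutation p = 0.1, adjusted p = 0.147). Of the 28 ratios, 19 did not overlap between groups. Among the ratios of all pairs of genes tested this held for 36.6%, and among those of genes of like level for 45.7%. The 28 ratios share their genes and are not independent, and some of the gaps were thin. For Snap25 to Syn1, saline replicate 2 stood at 15.967 and CFA replicate 2 at 15.962. The ratios with Gad2 and those with Vamp2 were separated for each of the 7 other genes. Gad2 was lower and Vamp2 higher in CFA relative to the other gene. Slc32a1, Slc17a6 and Syt1 were each separated from 3 genes.

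**Figure D4:**
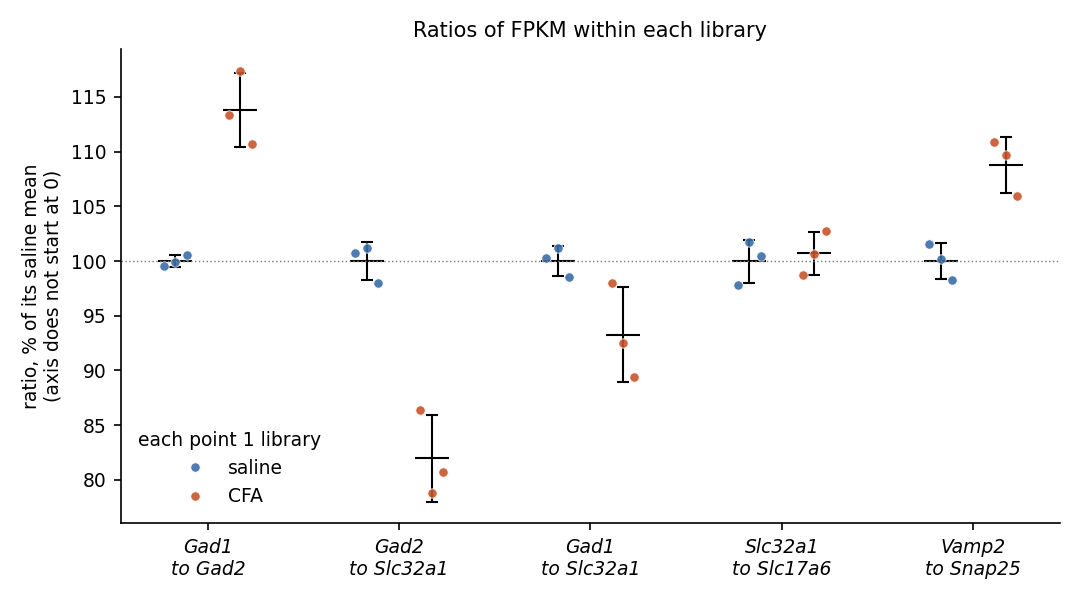
Ratios of FPKM within each library as a percentage of the ratio's saline mean, with the group mean and SD over 3 libraries. Gad1 to Gad2 and Vamp2 to Snap25 lie higher in CFA, the ratios of Gad1 and Gad2 to Slc32a1 lie lower, and Slc32a1 to Slc17a6 overlaps. The axis does not start at 0.

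Likeness of profiles was measured as the largest gap, in any of the 6 libraries, between the log2(FPKM + 1) values of 2 genes after each was centred on its own mean. Snap25 and Slc17a6 were the nearest pair among the 8 genes, with a gap of 0.028. As near or nearer were 13 other tested genes to Slc17a6 and 41 to Snap25. Slc32a1 was also nearest to Slc17a6, at 0.036, with 23 other genes as near or nearer. Syn1 was nearest to Snap25, at 0.038, with 130 such genes. For Gad2 the nearest was Gad1, at 0.13, with 82 such genes, and the farthest was Vamp2, at 0.25. Each of these genes thus had many others outside the 8 that were at least as like it. The 6 libraries form 2 groups, so such a gap also holds the difference between the groups.

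Promoter sequence is shown for 4 of the 8 genes, including both vesicle transporters and the gene with the largest fall. These 4 were taken by strand and annotated start, and not by their change. Entries were matched by symbol for 7 of the 8 genes, all but Snap25, and come from RefSeq with coordinates of build GRCr8, which is not the build named for the expression table. The 250 bases before the start are printed for genes on the plus strand whose start is also the first base of the annotated gene. They read 5′ to 3′ on the plus strand of the chromosome, which is the strand of the gene. Capitals mark a match to any of 4 motifs that were searched on both strands. These were the cyclic AMP response element TGACGTCA, the GC box GGGCGG, the TATA box TATAAA and the E-box CAGCTG, and in the printed stretches no match overlapped another.
Gad2, chr17:89671468-89671717: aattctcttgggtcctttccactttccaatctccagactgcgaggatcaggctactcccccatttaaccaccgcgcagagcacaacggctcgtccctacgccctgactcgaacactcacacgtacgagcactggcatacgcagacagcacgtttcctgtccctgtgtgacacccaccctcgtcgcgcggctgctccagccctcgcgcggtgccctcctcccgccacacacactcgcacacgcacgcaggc
Slc32a1, chr3:167686995-167687244: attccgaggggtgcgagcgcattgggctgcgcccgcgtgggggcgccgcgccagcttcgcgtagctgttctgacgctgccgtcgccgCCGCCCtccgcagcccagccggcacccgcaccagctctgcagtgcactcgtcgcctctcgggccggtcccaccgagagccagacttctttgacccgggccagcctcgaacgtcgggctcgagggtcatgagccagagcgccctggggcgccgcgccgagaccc
Slc17a6, chr1:110348197-110348446: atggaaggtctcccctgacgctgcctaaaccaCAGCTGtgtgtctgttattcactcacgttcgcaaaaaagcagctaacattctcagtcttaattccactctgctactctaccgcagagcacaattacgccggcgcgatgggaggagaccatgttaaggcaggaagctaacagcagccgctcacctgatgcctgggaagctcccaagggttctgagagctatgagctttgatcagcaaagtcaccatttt
Syn1, chrX:3725495-3725744: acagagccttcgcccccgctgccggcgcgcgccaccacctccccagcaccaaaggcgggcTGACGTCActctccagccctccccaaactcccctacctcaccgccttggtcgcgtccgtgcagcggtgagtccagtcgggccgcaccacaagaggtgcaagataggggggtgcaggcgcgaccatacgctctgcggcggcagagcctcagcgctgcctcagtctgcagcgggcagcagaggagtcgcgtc

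The printed stretch of Gad2 held no match to any of the 4 motifs, which says only that these letters are not in it. The cyclic AMP response element was present in Syn1 alone among the 7 promoters, beginning 190 bases before the start, and in 1.59% of all 33469 promoter stretches of the same length. The GC box was present in 4 of the 7 (Syt1, Vamp2, Gad1 and Slc32a1), against 30.5% of all stretches. Vamp2, which did not pass the test, held 3 GC boxes, and so did Syt1, which fell. The E-box was found in Syt1 and Slc17a6 (11.97% of all stretches), and the TATA box in Gad1 (12.9%). A match is a description of letters and not a bound site. The share of G and C was 50.8% in Slc17a6 and 62.0% to 73.6% in the other 6, against a median of 51.2% over all stretches.

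The test was limma on log2(FPKM + 1), a scale that slightly understates the change of FPKM itself (Gad2, -0.43 against -0.45 with a pseudocount of 0.01 FPKM). Across 18 other settings, each of the 7 genes that fell stayed lower with an adjusted p under 0.05, and Vamp2 kept a negative change without passing (limma). Markers of other cell types, of neurons in general and of RNA quality could not be named in the table, and their part in these falls was not tested.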

How the data were processed

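The values as the authors deposited them are FPKM, with 1 column for each library. The submitters' processing notes name the build mRatBN7.2 and the tools HISAT2 2, StringTie 2, fastp 0.21.0 and DESeq2 1.30.1 without saying what each was used for. No source used here gives the counter, the annotation release or a gene filter. Neither strand nor the treatment of shared reads is stated, so overlapping genes may hold each other's fragments. Columns were matched to libraries by the labels.

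Fragments, gene lengths and library totals were worked out from the whole steps in which FPKM move (whole within 0.0001 in all 6 libraries for 22967 genes). The 13566 genes averaging at least 1 FPKM were tested on log2(FPKM + 1), pseudocount 1 FPKM, with limma 3.58.1 in R 4.3.3 (lmFit, eBayes with a mean-variance trend, 4 residual degrees of freedom), two-sided, Benjamini-Hochberg over all genes tested. Ratios and figures used Python 3.11.15, scipy 1.17.1 and matplotlib 3.10.9.

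The 8 genes and the pathway and marker lists were chosen with earlier results of these data known. The rule for named genes took the 8 genes always, and others only where identifiers could be paired with symbols. They could not be, so the lists (presynaptic, GABA, glycine and glutamate genes, and cell type markers) are not analysed here. Alternatives covered the pseudocount, filter, scaling, variance moderation, a replicate block, leaving out libraries, and voom on fragments.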

Additional observations from a re-analysis of the deposited data

How the results depend on the processing

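Each of the 7 genes that fell kept its direction and an adjusted p under 0.05 (limma, Benjamini-Hochberg) in 18 alternatives, all planned, and Vamp2 kept its direction without passing in the same 18. The highest adjusted p among the 7 was 0.0484, for Syt1, and the log2 change of Gad2 lay between -0.45 and -0.41. The size of 2 genes moved by over 1.5 times. Snap25 went from -0.16 to -0.10 with quantile scaling. Vamp2 went from -0.039 to -0.026 with quantile scaling, -0.014 with cyclic loess scaling and -0.021 without CFA replicate 3. The count of all genes lower in CFA, 1015, became 666 with the variance moderated without a trend (the cause was not tested). It was 600 without saline replicate 1 and 635 without saline replicate 3, with a range of 600 to 781 over the 6 fits that leave out 1 library. Each such fit had fewer libraries. Quantile scaling gave 1197 genes higher and 1391 lower, beside 1530 and 1015 with FPKM as given. In the fit with a replicate block, 2086 genes passed against 2545, and none of the 8 genes changed its call. Deviations from the group mean hardly correlated between same-numbered libraries (-0.021, 0.021 and 0.023 across genes), so the numbers were not taken as pairs, and 4 of the 6 libraries correlated best with their own number. Alternatives for the pathway lists were not run, because identifiers could not be paired with symbols. With 3 libraries a group, an exact test of a single ratio cannot pass 0.05.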
